A study of Mus musculus with 419 samples.

Results

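The glandular kallikrein genes are a cluster of closely related serine protease genes, and 10 of them were taken from the 55487 genes of the count table by their symbols: Klk1, Klk1b3, Klk1b5, Klk1b8, Klk1b11, Klk1b21, Klk1b22, Klk1b24, Klk1b26 and Klk1b27. They were chosen by symbol with the lower testis counts of Klk1b21, Klk1b24 and Klk1b27 in energy-deficient males already seen in the same libraries, so the testis difference is given as a description with no test. All 10 were found in the table. RNA had been sequenced in 419 bulk libraries of 19 tissues from CBA/CaJ mice of a model of relative energy deficiency in sport. Energy-sufficient mice are called Control and energy-deficient mice Deficient, as in the labels, and both were collected at ZT05 and ZT17 (zeitgeber time, hours after lights on). Age and the way the deficiency was imposed are not given in the sources used here. Each combination of tissue, sex, treatment and time held 3 libraries, 1 per mouse, except 1 combination with 2. The 12 females gave every female tissue, so their tissues are not independent of each other. Testis and kidney males shared 0 animals. Males were numbered 73 to 94 and females 31 to 60 in kidney, adrenal gland and soleus. The same held for the extensor digitorum longus, the tibialis anterior and their tendons. Sex and animal series cannot be told apart in these tissues.

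Tissue kallikreins are secreted proteases. Klk1 itself cuts kininogen to release kinins, which act on the bradykinin receptors Bdkrb1 and Bdkrb2 and are broken down by peptidases such as Ace and Mme. In kidney, Klk1 is known as a product of the connecting and distal tubule. Rodents carry many further copies, the Klk1b genes, best known from the salivary glands: Klk1b3 encodes the gamma subunit of the nerve growth factor complex, Klk1b22 an epidermal growth factor-binding protein and Klk1b26 a prorenin-converting enzyme. Klk1b21, Klk1b24 and Klk1b27 are known from the Leydig cells of the mouse testis.

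The 10 genes lie in one direction on the plus strand of chromosome 7, between 43950664 and 44229618 (GRCm38, GENCODE gene models), from Klk1b8 at the low end to Klk1 at the high end, and all are protein-coding. Klk1b21, Klk1b24 and Klk1b27, the 3 whose testis values were low in Deficient males, were also alike in sequence. Their transcripts were identical at 94.1% of aligned bases between Klk1b21 and Klk1b24, at 94.0% between Klk1b21 and Klk1b27 and at 93.3% between Klk1b24 and Klk1b27. Klk1 and Klk1b5 (95.2%) and Klk1b26 and Klk1b8 (93.2%) were other close pairs. The 250 bases before the RefSeq gene start (GRCm38.p6) are shown for these 3 genes, where they share an unbroken run of 89 bases, and for Klk1b8 and Klk1, whose testis values overlapped between treatments. Capitals mark the shared run.

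Klk1b21, chr7:44102042-44102291, + strand: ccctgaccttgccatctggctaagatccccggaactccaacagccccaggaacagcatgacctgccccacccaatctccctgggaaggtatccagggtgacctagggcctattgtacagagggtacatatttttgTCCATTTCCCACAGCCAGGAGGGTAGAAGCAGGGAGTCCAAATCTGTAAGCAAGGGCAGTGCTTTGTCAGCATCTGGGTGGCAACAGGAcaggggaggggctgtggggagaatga
Klk1b24, chr7:44187986-44188235, + strand: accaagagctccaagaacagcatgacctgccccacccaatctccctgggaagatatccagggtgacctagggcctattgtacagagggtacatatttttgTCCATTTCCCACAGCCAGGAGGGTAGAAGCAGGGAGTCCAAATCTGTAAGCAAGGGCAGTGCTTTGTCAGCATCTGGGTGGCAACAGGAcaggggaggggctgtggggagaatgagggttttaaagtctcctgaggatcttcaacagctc
Klk1b27, chr7:44052040-44052289, + strand: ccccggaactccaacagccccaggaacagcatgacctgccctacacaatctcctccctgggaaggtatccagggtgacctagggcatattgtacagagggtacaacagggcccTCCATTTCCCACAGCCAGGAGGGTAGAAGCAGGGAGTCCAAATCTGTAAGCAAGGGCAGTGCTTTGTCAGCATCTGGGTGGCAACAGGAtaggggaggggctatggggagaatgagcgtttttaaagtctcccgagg
Klk1b8, chr7:43950416-43950665, + strand: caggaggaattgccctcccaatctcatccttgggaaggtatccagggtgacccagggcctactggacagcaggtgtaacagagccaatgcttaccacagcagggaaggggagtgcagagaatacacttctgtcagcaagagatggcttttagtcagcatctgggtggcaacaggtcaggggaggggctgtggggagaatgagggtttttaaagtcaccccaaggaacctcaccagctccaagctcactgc
Klk1, chr7:44225110-44225359, + strand: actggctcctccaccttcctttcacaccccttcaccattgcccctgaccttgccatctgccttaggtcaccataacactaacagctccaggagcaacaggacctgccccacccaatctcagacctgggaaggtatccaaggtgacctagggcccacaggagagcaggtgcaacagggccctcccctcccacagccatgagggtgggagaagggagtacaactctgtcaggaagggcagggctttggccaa

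The run began at position -115 from the gene start in Klk1b21, -150 in Klk1b24 and -137 in Klk1b27. Of 32851 promoter windows of the same length, 3 held it, those of these genes, and 0 other members did. It was searched for after the testis values were known. Over the aligned window, Klk1b21 and Klk1b24 were identical at 99.5% of bases. Of the motifs searched on either strand, TTTAAA was present in 8 of the 10 windows (12.1% of all windows), AAGGTCA in those of Klk1 and Klk1b21 (4.08%) and AGAACA in those of Klk1b24 and Klk1b3 (16.1%). A match to these letters is a description only. Between 12.8% and 33.9% of the 50-base stretches of a member's transcript recurred in another gene, so reads can be split between members, and small values of 1 member beside a large value of a relative are uncertain.

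Library totals ranged from 5777450 to 53598697 counts. Levels are CPM, counts scaled to library size with TMM factors, and a gene is called changed at an adjusted p under 0.05 from edgeR's quasi-likelihood test with Benjamini-Hochberg adjustment over all genes tested in that tissue. Log2 fold changes are Deficient over Control with their standard error. In whole tissue, fewer cells of a type and less RNA per cell cannot be told apart. The share of all genes without overlap between treatments was not counted in any tissue, so a lack of overlap is a description. Liver and brown adipose tissue had no member above the low-count filter. A gene passed that filter when libraries of either treatment held enough counts, so a member low in Deficient mice could pass through Control alone.

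In Control mice the members differed in the tissue where they were highest. Klk1 reached 3112 ± 269 CPM in female kidney and 2900 ± 443 CPM in male kidney (SD, n = 6 each), 99.7% of the summed CPM of the 10 members in each sex. The spread of the sexes overlapped. The next highest means of Klk1, in female spleen (44.1 ± 80.3 CPM) and ovary (26.9 ± 9.02 CPM), did not differ beyond their spread from each other. Klk1b8 was highest in testis (103 ± 20.1 CPM), far above its next tissue, male kidney (1.56 ± 0.364 CPM). Klk1b3 had its highest mean in testis as well, at 10.8 ± 1.54 CPM. Klk1b21, Klk1b24, Klk1b27 and Klk1b11 had their highest means in ovary, at 56.6 ± 37.8, 8.27 ± 7.17, 2.96 ± 3.96 and 1.36 ± 0.994 CPM, with wide spread between the mice. Klk1b26 was highest in female soleus (22.5 ± 4.79 CPM), followed by testis (17.6 ± 1.93 CPM), whose range it overlapped. Klk1b5 was at 3.67 ± 0.417 CPM in testis and 3.53 ± 0.514 CPM in female kidney, within each other's spread, and the mean of Klk1b22 stayed at or below 0.675 CPM everywhere.

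**Figure D1:**
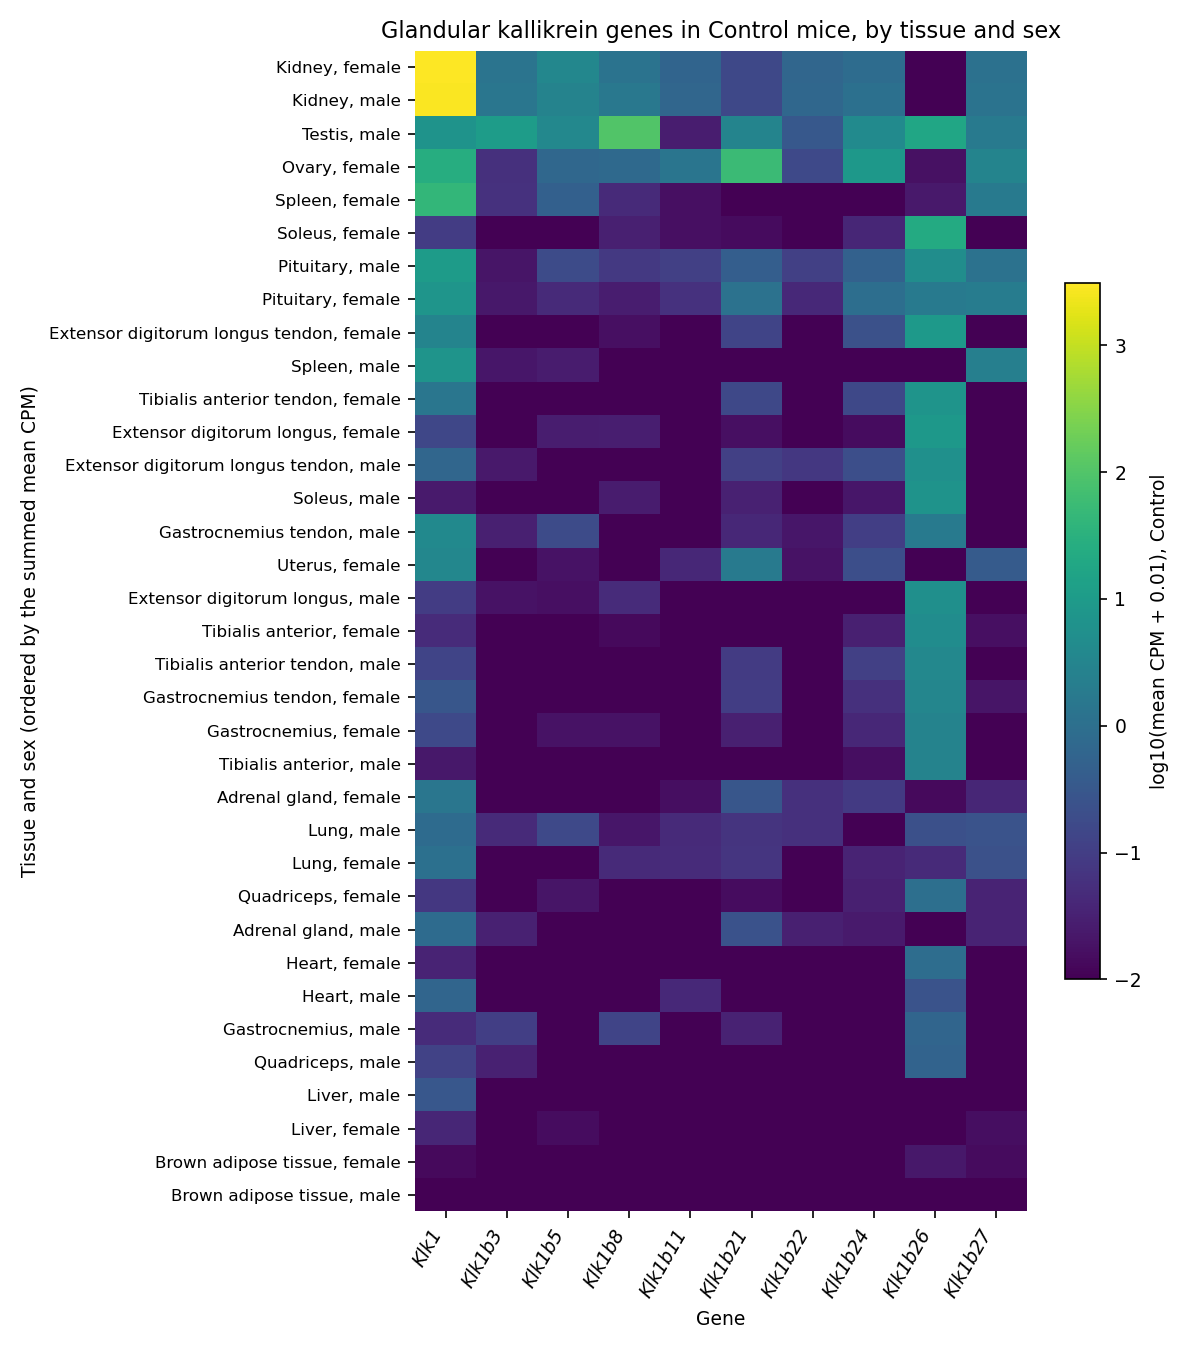
Mean level in Control mice of the 10 genes (columns) in each tissue and sex (rows), as log10 of the mean CPM plus 0.01, with 6 libraries in each row except 5 for males in the tibialis anterior tendon. Klk1 fills kidney, Klk1b8 stands out in testis, Klk1b21 in ovary and Klk1b26 in skeletal muscle.

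Divided by exon length, Klk1b8 was also the most abundant member in Control testis, at 119 CPM per kilobase. Klk1b26 followed with 12.7, Klk1b3 with 12.2, Klk1 with 6.06, Klk1b24 with 4.75, Klk1b21 with 3.37, Klk1b5 with 2.64 and Klk1b27 with 1.97 CPM per kilobase. The 3 genes of the shared promoter run were thus low in testis compared with Klk1b8. Per kilobase in Control ovary, Klk1b21 (65.0) exceeded Klk1 (24.96) and Klk1b24 (9.42). Per kilobase in Control female kidney, Klk1 stood at 2889 and Klk1b5, the next member, at 2.54 CPM. Klk1b5 shares 12.7% of its 50-base stretches with Klk1. The genes most like Klk1 over the 35 Control means of tissue and sex were Kcnj16, Folh1, Slc5a11, Ggt1 and Guca2b, with Pearson r of log2(CPM + 1) from 0.913 to 0.946. The 2 highest of these Klk1 means are those of kidney.

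In testis, the 3 genes already seen to be low when the set was chosen separated Deficient from Control males. The other members did not. Klk1b21 lay at 1.11, 2.51 and 4.92 CPM (lowest, median and highest of 6 libraries) in Control and at 0.158, 0.325 and 0.711 CPM in Deficient males. Klk1b24 lay at 1.67, 4.04 and 7.80 CPM in Control and at 0.198, 0.566 and 1.03 CPM in Deficient. Klk1b27 lay at 0.778, 1.46 and 4.197 CPM in Control and at 0.136, 0.193 and 0.323 CPM in Deficient. For each of these 3 genes, every Deficient library was below every Control library. The fitted levels were 8.42 times lower for Klk1b21 (-3.07 ± 0.34 on the log2 scale), 6.95 times lower for Klk1b24 (-2.80 ± 0.33) and 7.88 times lower for Klk1b27 (-2.98 ± 0.41). These values chose the members and carry no test, and the standard errors are not to be read as one. Of the 20816 genes tested in testis, 0.0192% were called lower by adjusted p. These 3 members are among the genes counted, so that share is no support for them. The share of all genes without overlap between treatments was not counted.

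Klk1b8, the most abundant member in testis, was at 79.9 to 130 CPM in Control and 79.1 to 103 CPM in Deficient males. Klk1b26 ranged from 15.3 to 21.1 CPM in Control and from 15.5 to 18.7 CPM in Deficient males. With Klk1, Klk1b3 and Klk1b5 these made 5 members whose log2 differences lay between -0.09 and 0.16 and whose groups overlapped. Klk1b22 fell under the low-count filter, with 1 to 12 counts per library in Control and 0 to 2 in Deficient males, and Klk1b11 had 0 to 2 counts and 0 counts. Leaving out each library or each replicate number in turn moved the 3 low genes to between -3.24 and -2.54. That range describes the fit and is no support for the difference, as the same libraries chose the genes.

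**Figure D2:**
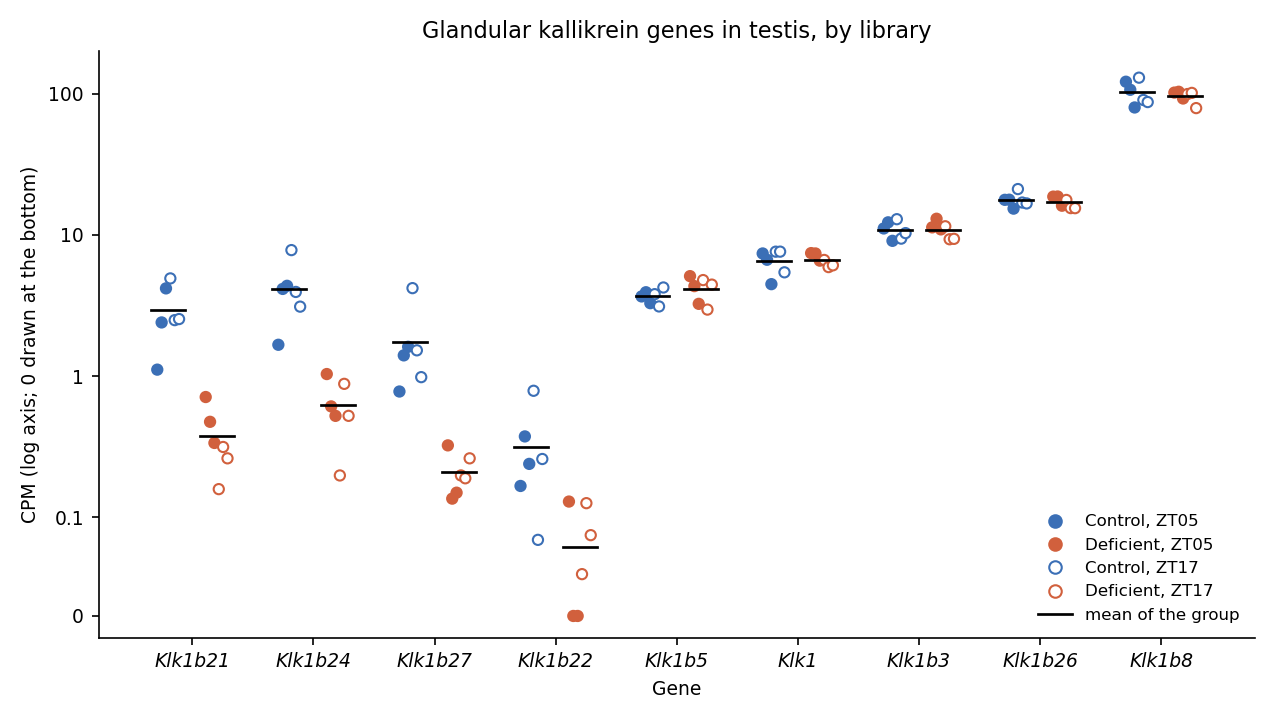
Level of 9 members in each testis library on a log axis of CPM (0 drawn at the bottom), with Control in blue, Deficient in orange, ZT05 filled, ZT17 open and the mean of 6 libraries as a bar. Klk1b21, Klk1b24 and Klk1b27 have no overlap between treatments, while Klk1b8 lies between 79.1 and 130 CPM in all 12 libraries.

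Among cell type markers in testis, the summed level of 9 Leydig cell genes, among them the steroid-synthesis genes Star, Cyp11a1 and Cyp17a1, was 574 to 688 CPM in Control and 137 to 555 CPM in Deficient males. Of the 9, 5 had negative and 4 positive log2 differences, with a list median of -0.15. Cyp17a1, the highest of the 9, was at 313 ± 32.8 CPM in Control and 167 ± 78.1 CPM in Deficient males. Nr5a1, by contrast, was at 36.3 ± 3.22 CPM in Control and 40.9 ± 7.96 CPM in Deficient males. The lowest adjusted p among the 9 was 0.0696 by edgeR. Star was at 60.0 ± 7.91 CPM in Control and 33.2 ± 17.5 CPM in Deficient males (adjusted p = 0.144), and Hsd3b1, a further steroid-synthesis gene and the one with that lowest p, at 13.4 ± 3.30 and 21.0 ± 3.90 CPM. The Sertoli cell sum was 1097 to 1178 CPM in Control and 1097 to 1508 CPM in Deficient. The sum of 8 germ cell genes was 13875 to 21080 CPM in Control and 10496 to 16928 CPM in Deficient males, with overlap. The sum of 8 epididymis genes was 3.34 to 4.97 and 3.25 to 9.15 CPM. The part of these cell types in the kallikrein values was not tested. The 5 other genes with the pattern most like the mean of Klk1b21, Klk1b24 and Klk1b27 over the 12 testis libraries were Prr27, Fam83e, Izumo1, Mdm1 and Sun5 (Pearson r of log2(CPM + 1) from 0.910 to 0.963, of 14847 genes compared). Their differences were smaller, from 133 ± 10.9 to 110 ± 4.44 CPM for Prr27 and from 23.4 ± 2.49 to 16.8 ± 1.91 CPM for Fam83e. Izumo1, the sperm protein of egg binding, went from 115 ± 6.70 to 103 ± 1.74 CPM. All of these likenesses include the difference between treatments.

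Kidney carried by far the most kallikrein RNA, and Klk1 was lower there in Deficient females. It lay at 2744, 3204 and 3403 CPM (lowest, median, highest) in Control and 2047, 2174 and 2977 CPM in Deficient females, where the ZT17 replicate 2 library alone reached into the Control range. The fall was -0.43 ± 0.12 on the log2 scale, or 1.35-fold (adjusted p = 0.0266, edgeR). Of the 8 members tested in kidney, Klk1 alone was called in females, and 9.43% of all genes tested were called in either direction. The call was lost without any single one of 7 female libraries, with adjusted p from 0.0518 to 0.0883 and log2 differences from -0.43 to -0.38. These were Control ZT05 replicates 1 and 3, Control ZT17 replicates 1 and 3, Deficient ZT05 replicate 2 and Deficient ZT17 replicates 1 and 3. On raw library totals Klk1 went from 3366 ± 257 to 2490 ± 377 CPM in females (exact permutation test, two-sided, p = 0.0043, n = 6 each).

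In males Klk1 was at 2120, 2964 and 3413 CPM in Control and 1889, 2494 and 2650 CPM in Deficient kidneys, and the groups overlapped at the Control ZT05 replicate 1 library. The log2 difference was -0.31 ± 0.12 with an adjusted p of 0.0438 by edgeR, in a tissue where 40.8% of all genes were called in males. It did not pass on raw totals, where the means were 2448 ± 308 and 2356 ± 286 CPM (exact permutation test, two-sided, p = 0.604, n = 6 each). The same permutation test on TMM-scaled totals gave p = 0.0541 (exact, n = 6 each). Relative to the TMM scale, raw totals moved the log2 difference by 0.25 in males and by -0.01 in females, a shift that all genes share. The male call was also lost without each of 13 of the 24 kidney libraries, with log2 differences from -0.33 to -0.22 and adjusted p from 0.0501 to 0.179. In males these were Control ZT05 replicates 2 and 3, all 3 Control ZT17 replicates, Deficient ZT05 replicate 2 and Deficient ZT17 replicates 2 and 3. In females they were Control ZT05 replicates 1 and 2, Control ZT17 replicate 1 and Deficient ZT05 replicates 2 and 3. The responses of the sexes differed by -0.12 ± 0.17 for Klk1 (adjusted p = 0.668, edgeR; 95% interval -0.46 to 0.21), and 0 of 8 members were called for a sex difference of the response by edgeR, against 13.9% of all genes, with 0 at an unadjusted p under 0.05 and 0 called by DESeq2. The 7 other members tested were not called in either sex, with log2 differences from -0.37 to 0.26.

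**Figure D3:**
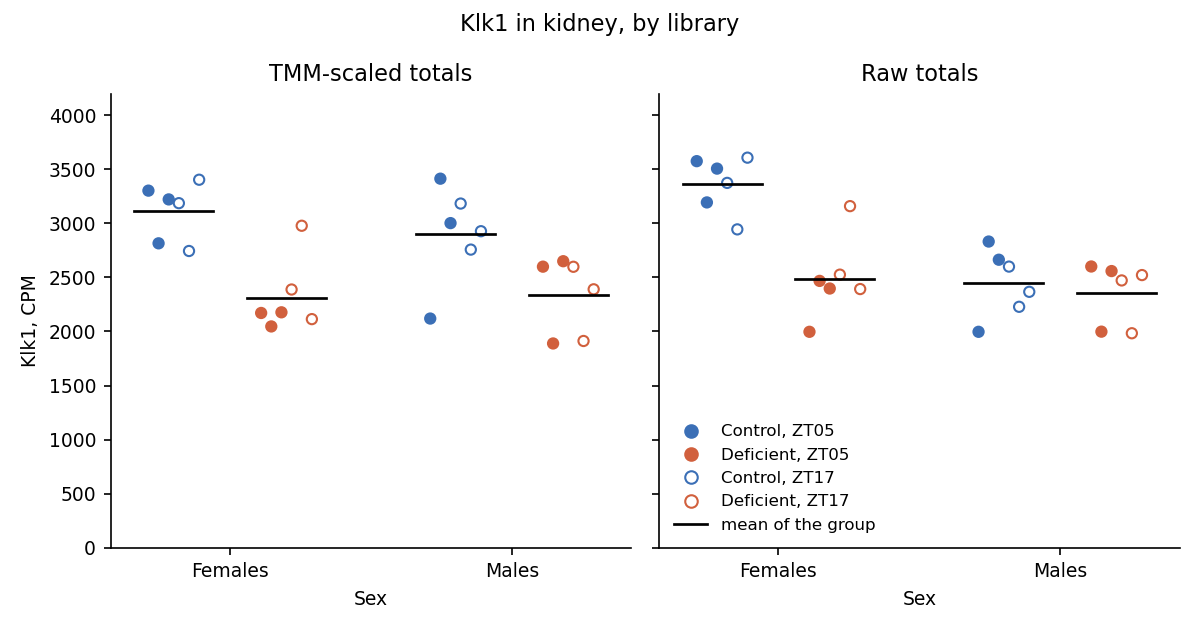
Klk1 in each kidney library in CPM, on TMM-scaled totals (left) and raw totals (right), by sex, with Control in blue, Deficient in orange, ZT05 filled, ZT17 open and the mean of 6 libraries as a bar. The female difference is of like size on both scales, whereas the male means of 2900 and 2340 CPM on the left become 2448 and 2356 CPM on the right.

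Sums of tubule segment markers differed between treatments too, except that of the distal tubule in females, which overlapped. The sum of 8 distal and connecting tubule genes was 2484 to 3323 CPM in Control and 1545 to 3413 CPM in Deficient females, and 1200 to 1860 and 1990 to 2181 CPM in males. In females, where 9.43% of all genes were called, 0 of these 8 rose and 1 fell, the calcium channel gene Trpv5. The list median was -0.31 against 0.01 for all genes. In males, where 40.8% of all genes were called, 3 rose and 0 fell, with a median of 0.27 against 0.03. The 3 were Trpm6, the sodium chloride cotransporter gene Slc12a3 and the sodium channel subunit gene Scnn1g. These distal tubule counts lie near the shares of all genes. The proximal tubule sum fell outside the Control range in every Deficient library, from 14589 to 17894 down to 5785 to 10870 CPM in females and from 47067 to 67637 down to 14838 to 30396 CPM in males. Kap, an androgen-regulated proximal tubule gene and part of that sum, was at 6998 ± 1194 CPM in Control and 1073 ± 705 CPM in Deficient females. In males Kap was most of the sum, at 49219 ± 9024 CPM in Control and 14232 ± 5641 CPM in Deficient mice. Of the 6 genes 3 fell and 0 rose in females, where 9.43% of all genes were called. In males, where 40.8% were called, 4 fell and 1 rose, Slc5a12 (0.78 ± 0.19, adjusted p = 0.0025, edgeR). The part of these shifts in the Klk1 values was not tested. The genes most like Klk1 over the 24 kidney libraries were Txndc12, Uros, Tinag, Oxct1 and Ywhab (Pearson r from 0.843 to 0.876, of 14032 genes compared), of which Oxct1 went from 1638 ± 98.5 to 1095 ± 258 CPM in females.

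A list of the kallikrein-kinin pathway, which also held the renin gene Ren1, had 11 tested genes in kidney. Of these, 1 rose and 1 fell in females, where 9.43% of all genes were called. Serpina3c, a serine protease inhibitor gene of the kallistatin type, rose by 1.43 ± 0.35 on the log2 scale from 0.611 ± 0.489 CPM (adjusted p = 0.0118, edgeR), and Mme, which encodes the peptidase neprilysin, fell by 0.48 ± 0.12 (adjusted p = 0.0157). In males 5 rose and 2 fell, where 40.8% of all genes were called. Ace, the kinin-degrading and angiotensin-converting enzyme, was at 373 ± 87.4 CPM in Control and 89.5 ± 22.0 CPM in Deficient males, a fall of -2.07 ± 0.18 (adjusted p = 8.91e-08, edgeR). Ren1, which encodes renin, fell by 0.84 ± 0.23 (adjusted p = 0.0060), while Cpn1 (1.17 ± 0.16) and the plasma kallikrein gene Klkb1 (0.56 ± 0.17) rose. The list medians were -0.08 in females and 0.27 in males, and those of all genes 0.01 and 0.03.

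In ovary, Klk1 was lower in every Deficient female than in any Control female, though how many genes did so was not counted. It lay at 12.3, 28.5 and 38.4 CPM in Control and 2.695, 2.95 and 6.71 CPM in Deficient ovaries, 7.06 times lower in the fit (-2.82 ± 0.29 on the log2 scale, adjusted p = 0.0045, edgeR). Of the 7 members tested, 1 was called lower, against 5.78% of all genes. The call held without each of the 12 libraries in turn, but not without replicate 1, 2 or 3 of both treatments and times (adjusted p from 0.0539 to 0.0882), where the difference stayed between -2.85 and -2.73.

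The 6 tested Klk1b members of ovary had lower means in Deficient mice and did not pass edgeR's test, whereas DESeq2 called 5 of the 7 members, Klk1, Klk1b21, Klk1b24, Klk1b27 and Klk1b8. Klk1b21 lay at 1.40, 52.6 and 109 CPM in Control and 9.52, 12.3 and 19.4 CPM in Deficient ovaries (-2.08 ± 0.66, adjusted p = 0.0699, edgeR). Klk1b24 differed by -1.81 ± 0.64 (adjusted p = 0.0937), Klk1b27 by -2.68 ± 0.85 (0.0695) and Klk1b8 by -2.38 ± 0.79 (0.0791). Klk1b8 reached the low-count filter's minimum of 10 counts only in Control ovaries. The Control ZT05 replicate 2 ovary had the lowest Control value of each of these 4, with Klk1b21 at 1.40 and Klk1b24 at 0.226 CPM, although its Klk1 was at 31.9 CPM. Without it all 4 were called, Klk1b21 at -2.37 (adjusted p = 0.0055), Klk1b24 at -2.10 (0.0127), Klk1b27 at -2.97 (0.0292) and Klk1b8 at -2.66 (0.0361). That library was singled out for its low values, and leaving out no other single library gave a call for any of the 4. The summed level of the 9 Leydig cell genes, most of them of steroid synthesis, was 11547 CPM in that ovary, 10849 CPM in Control ZT05 replicate 3 and 6277 CPM in Deficient ZT05 replicate 3. In the other 9 ovaries it lay between 9.06 and 906 CPM. The part of ovarian stage or cell content in the kallikrein values was not tested. Klk1b1, a family gene outside the 10, was at 1.336 ± 0.809 CPM in Control and 0.0235 ± 0.0364 CPM in Deficient ovaries (-5.48 ± 0.86, adjusted p = 0.0099, edgeR). Of the kallikrein-kinin list in ovary, the renin gene Ren1 fell by 2.94 ± 0.70 (adjusted p = 0.0299, edgeR). Bdkrb2, the constitutive kinin receptor gene, rose by 1.63 ± 0.39 (adjusted p = 0.0306, edgeR). They were the only 2 of 11 called, where 865 genes rose and 1077 fell of 18637 tested.

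Uterus came from the same 12 females. Klk1 lay at 2.28, 2.78 and 5.51 CPM in Control and at 0.360, 0.656 and 1.45 CPM in Deficient uteri, with no overlap (-2.21 ± 0.38, 4.61-fold lower, adjusted p = 0.0010, edgeR). Klk1b21 lay at 0, 1.13 and 4.39 CPM in Control and 0, 0.1097 and 0.791 CPM in Deficient uteri, with overlap (-2.77 ± 1.01, adjusted p = 0.0420). Both tested members were called lower, against 23.8% of all genes, and genes without overlap were not counted. The Klk1 call held without each library and each replicate number in turn. The Klk1b21 call was lost without any 1 of 7 libraries, with adjusted p from 0.0553 to 0.138 and log2 differences from -2.86 to -1.87: Control ZT05 replicates 2 and 3, Control ZT17 replicate 3, Deficient ZT05 replicates 1 and 2 and Deficient ZT17 replicates 1 and 3.

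**Figure D4:**
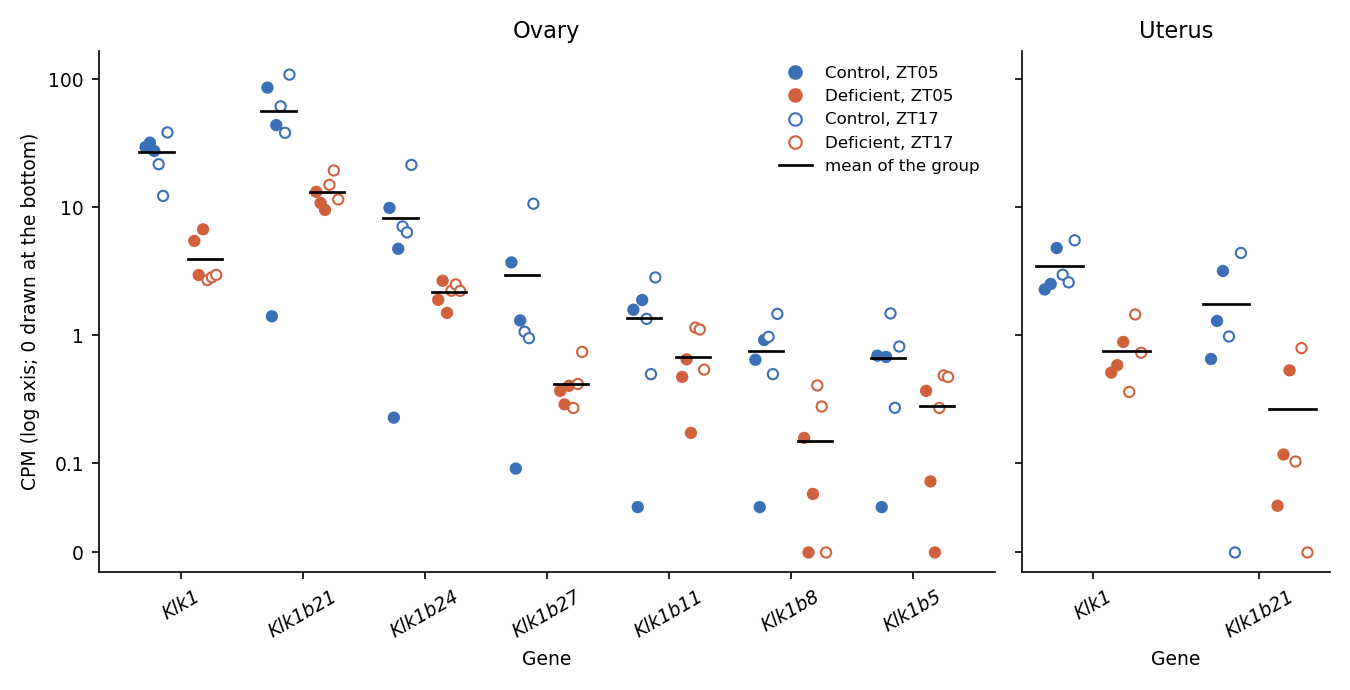
Level of the tested members in each ovary (left) and uterus (right) library on a log axis of CPM (0 drawn at the bottom), with Control in blue, Deficient in orange, ZT05 filled, ZT17 open and the mean of 6 libraries as a bar. Klk1 has no overlap between treatments in either organ, and 1 Control ovary lies low for every Klk1b gene, with Klk1b21 at 1.40 CPM.

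In skeletal muscle the family was represented by Klk1b26, called higher in Deficient mice in 5 of 10 tests of muscle and sex. In soleus of males it lay at 4.17, 6.93 and 8.64 CPM in Control and 19.1, 24.9 and 31.0 CPM in Deficient mice, 3.75-fold higher (1.91 ± 0.35 on the log2 scale, adjusted p = 0.0022, edgeR). In the extensor digitorum longus (EDL) of males it rose from 4.43, 5.51 and 6.60 to 9.50, 13.5 and 16.2 CPM (1.27 ± 0.19, adjusted p = 0.0002). In the tibialis anterior (TA) of males it rose from 1.90, 2.74 and 3.91 to 5.49, 6.96 and 11.7 CPM (1.40 ± 0.22, adjusted p = 0.0005). The groups did not overlap in any of these 3 muscles of males, which came from the same 12 mice. How many other genes separated in this way in those muscles was not counted. The calls in EDL and TA of males held without each replicate number, and that in soleus was lost without replicate 1 or 2 (adjusted p = 0.0774 and 0.1096, differences of 1.91 and 1.77).

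In females Klk1b26 rose in EDL, from 6.60, 8.04 and 11.3 to 7.90, 16.4 and 17.1 CPM (0.74 ± 0.17, adjusted p = 0.0025, edgeR), and in TA, from 3.85, 4.44 and 5.80 to 3.82, 8.53 and 9.97 CPM (0.72 ± 0.20, adjusted p = 0.0102). The groups overlapped in both muscles. In soleus it was at 16.8, 23.2 and 28.0 CPM in Control and 5.27, 40.1 and 51.6 CPM in Deficient females, and did not pass (0.64 ± 0.32, adjusted p = 0.160). When each of the 12 female mice was left out in turn, the EDL and TA calls held in all 12 fits each, and soleus passed in 1 of 12, without the Deficient mouse numbered 59 (0.89, adjusted p = 0.0029). Leaving out replicate 1 of every group ended the female calls in EDL (0.54, adjusted p = 0.140) and TA (0.49, adjusted p = 0.201), and leaving out replicate 2 that in TA (0.67, adjusted p = 0.0983).

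The larger muscles had lower levels. In quadriceps Klk1b26 went from 0.997 ± 0.306 to 2.68 ± 0.914 CPM in females (1.45 ± 0.51, adjusted p = 0.224, edgeR) and from 0.555 ± 0.645 to 2.33 ± 0.993 CPM in males (1.98 ± 0.60, adjusted p = 0.0892). In gastrocnemius the differences were 0.32 ± 0.50 in females and 1.70 ± 0.57 in males (adjusted p = 0.841 and 0.206). Over these 5 muscles and both sexes Klk1b26 was called higher in 5 of 10 tests, against 6.18% of all gene tests there, and DESeq2 called 7, those of quadriceps included. These are tests of 1 gene, many in the same mice, so they are not independent. The pooled share also covers unlike muscles, from 31 of 15415 genes called higher in male gastrocnemius to 2377 of 14893 in female EDL. Heart was not called (adjusted p = 0.337 in females and 0.288 in males). The female minus male difference of the response did not pass in any of the 5 muscles, with -1.27 ± 0.47 in soleus (adjusted p = 0.308, edgeR) and -0.68 ± 0.30 in TA (adjusted p = 0.236). Some female mice took the same rank in several muscles. The Deficient mouse numbered 59 had the lowest Klk1b26 of the 6 Deficient females in 6 of 6 muscles, heart included, and the mouse numbered 60 the second lowest in 6 of 6. Among Control females the mouse numbered 48 was highest in 5 of 6. The highest place among Deficient females was shared by 3 mice, with 2 muscles each.

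**Figure D5:**
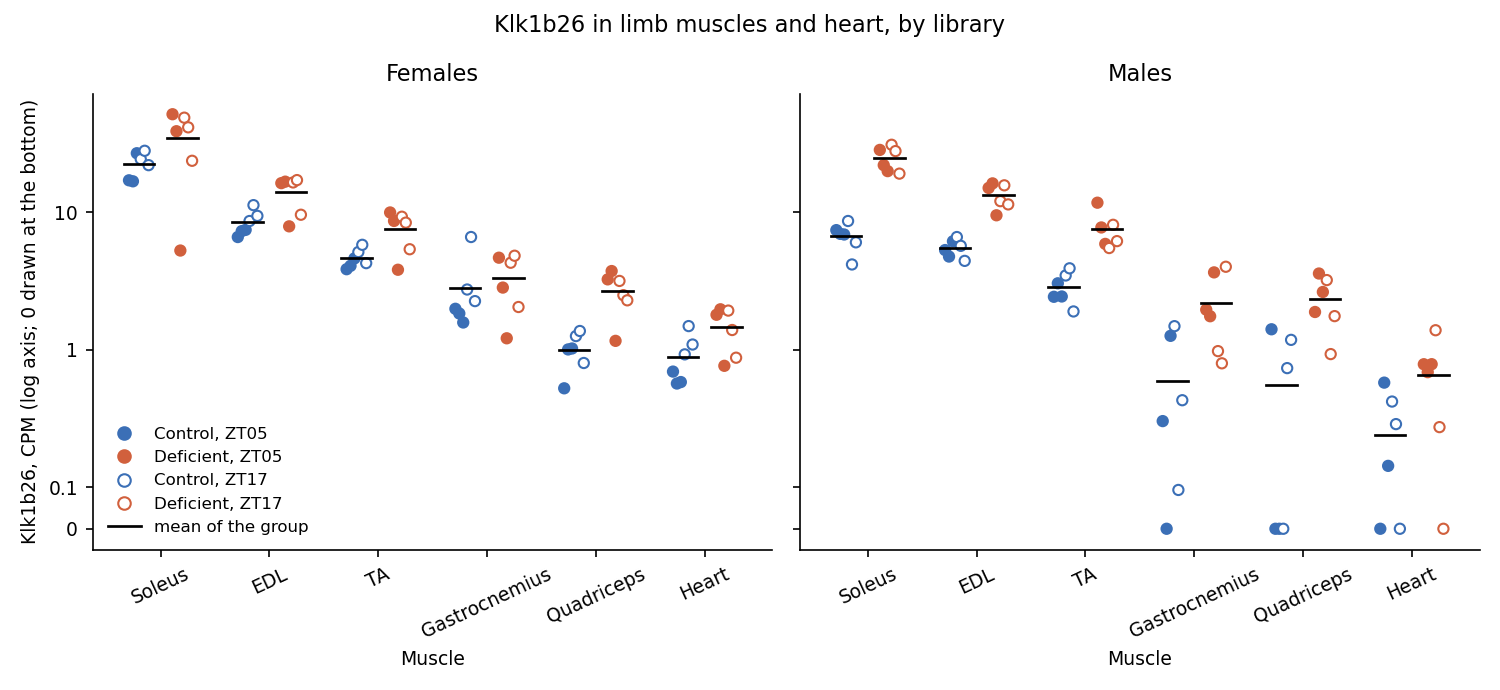
Klk1b26 in each library of 5 limb muscles and heart on a log axis of CPM (0 drawn at the bottom), females left and males right, with Control in blue, Deficient in orange, ZT05 filled, ZT17 open and the mean of 6 libraries as a bar. EDL is the extensor digitorum longus and TA the tibialis anterior. In males the groups separate in soleus, EDL and TA, and in female soleus 1 Deficient library lies at 5.27 CPM, below all Control libraries.

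Klk1 was also lower in 2 of 3 tendons of Deficient females, at low counts. In the EDL tendon it lay at 0.285, 3.61 and 5.94 CPM in Control (5 to 115 counts) and 0, 0.135 and 0.572 CPM in Deficient females (0 to 12 counts), a difference of -4.12 ± 0.95 (adjusted p = 0.0142, edgeR). In the TA tendon it lay at 0.500, 1.49 and 2.33 CPM in Control (8 to 61 counts) and 0.0439, 0.105 and 0.276 CPM in Deficient females (1 to 7 counts), with no overlap (-3.62 ± 0.63, adjusted p = 0.0078). Only female Control libraries reached the low-count filter's minimum of 10 there, so Klk1 was tested because it was high in Control. How many genes showed no overlap in that tendon was not counted. In the gastrocnemius tendon of females the groups overlapped, at 0 to 0.450 CPM in Control and 0 to 0.552 CPM in Deficient mice (-0.53 ± 1.55, adjusted p = 0.929). Among the EDL tendons, the female Control ZT05 replicates 1 and 2, with Klk1 at 4.35 and 3.58 CPM, held 11.5 and 9.65 CPM of the 6 proximal tubule genes, and the other female libraries at most 1.73 CPM. Control ZT17 replicates 1 and 3 held 3.65 and 5.94 CPM of Klk1 with 0 and 0.568 CPM of those genes. The part of kidney RNA in the EDL tendon values was not tested. Over 3 tendons and both sexes 2 of 12 member tests, many in the same mice, were called lower, against 2.47% of all gene tests. Klk1b26, the member with the highest CPM in Control tendons except the male gastrocnemius tendon, was not called, with differences from -0.04 to 1.341. Both Klk1 calls held without each female library in turn. They were lost without replicate 1 (adjusted p = 0.143 in the EDL and 0.298 in the TA tendon), and without replicate 2 (0.0899) in the first and replicate 3 (0.0995) in the second.

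In 2 organs Klk1 moved with markers of a neighbouring organ. In female adrenal gland it was called higher in Deficient mice (4.67 ± 1.32, adjusted p = 0.0418, edgeR), 1 of 1 members tested, against 2.31% of all genes, and not by DESeq2. Deficient ZT17 replicate 1 held 712 CPM and Deficient ZT05 replicate 3 held 13.9 CPM, while the other 10 female libraries lay between 0.0851 and 4.13 CPM. The library at 712 CPM had a summed level of 755 CPM of 6 proximal tubule genes and 387 CPM of 8 distal tubule genes, with 0 of either list at 0. In the other female adrenals those sums were at most 21.0 and 10.05 CPM. Without that library the difference was -0.79 (adjusted p = 0.737), and without both libraries highest in proximal tubule genes -2.38 (adjusted p = 0.158). The call was also lost without any of 6 further female libraries, at 3.08 to 4.94: Control ZT05 replicates 2 and 3, the 3 Control ZT17 replicates and Deficient ZT05 replicate 3 (adjusted p from 0.0892 to 0.360). In spleen Klk1 was not called in females (-2.001 ± 0.77, adjusted p = 0.415) or males (-0.33 ± 0.93, adjusted p = 0.897). Its highest spleen value, 207 CPM in the female Control ZT05 replicate 1 library, came with 18392 CPM of 8 pancreas acinar genes, and the next, 60.9 CPM in the female Deficient ZT17 replicate 3 library, with 4822 CPM. The part of kidney or pancreas RNA in these values was not tested. In pituitary 5 members were tested and not called, Klk1 with -0.48 ± 0.28 in females and -0.62 ± 0.28 in males (adjusted p = 0.423 and 0.400, edgeR).

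Outside testis and kidney, 11 of 55 member tests of the response were called, against 7.53% of all gene tests, all of them named above. Many of these tests share a gene or mice, so they are not independent. Time of day gave little. The difference of the response between ZT17 and ZT05 was called by edgeR in 0 of 48 member tests, against 1.9% of all gene tests, with 3 at an unadjusted p under 0.05, and DESeq2 called 1, Klk1 in lung. Within Control mice 1 of 48 was called, against 5.26%: Klk1b27 in lung, at 0.0891 CPM at ZT17 and 0.373 CPM at ZT05 (-2.08 ± 0.68, adjusted p = 0.0443, edgeR). The Klk1b27 call was lost without replicate 1, 2 or 3, and DESeq2 called Klk1 in lung in its place. Klk1b27 had 0 to 12 counts per Control lung library. Mitochondrially encoded counts made up 32.3 to 64.9% of male and 2.15 to 3.79% of female lung libraries.

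Between the sexes of Control mice 9 of 31 member tests were called, against 47.1% of all gene tests. Klk1b26 was higher in females than in males in soleus (22.5 and 6.69 CPM, 1.76 ± 0.35, adjusted p = 0.0003, edgeR), EDL (0.60 ± 0.19), TA (0.70 ± 0.22), gastrocnemius (1.964 ± 0.57) and heart (1.962 ± 0.63). Mitochondrially encoded counts made up 60.9 to 76.9% of male heart libraries and 22.4 to 31.0% of female ones. They reached 55.3% in male gastrocnemius, 68.2% in male spleen and 62.5% in the male gastrocnemius tendon, against 14.7, 3.67 and 15.2% in females. Male Control hearts had 0 to 3 Klk1b26 counts. The part of these library differences in the sex calls was not tested. In soleus, EDL, TA and the TA tendon, sex cannot be told apart from animal series. Klk1b26 was lower in females in pituitary (1.79 and 5.03 CPM, -1.49 ± 0.40, adjusted p = 0.0027, edgeR). Klk1 was higher in females in spleen (2.45 ± 0.84, adjusted p = 0.0243), where its values go with the pancreas genes above. It was also higher in females in the TA tendon (3.67 ± 0.72), where only female Control libraries reached the low-count filter's minimum of 10. Klk1 was lower in females in the gastrocnemius tendon (-3.98 ± 1.43, adjusted p = 0.0451). In that tendon 2 male Control libraries, at 13.2 and 10.5 CPM of Klk1, also held 1020 and 728 CPM of the pancreas genes, and the other 10 Control libraries held at most 0.450 and 20.2 CPM. In kidney Klk1 did not pass between the sexes (0.10 ± 0.12, adjusted p = 0.465). Without replicate 1 or 2 of every group the number called fell to 5 and 4.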

How the data were processed

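Poly(A) RNA of each tissue was sequenced in stranded libraries, per the labels' protocols. The authors deposited gene counts for 419 libraries, used here as raw counts. Per the submitters' processing notes, FastQC 0.11.9, cutadapt 4.1, STAR 2.7.10a, DESeq2 1.34.0 and the GRCm38 (mm10) genome were used. The counting tool, annotation and strand setting are not given in the sources used here. Klk1 and Klk1b8 overlap antisense genes, whose reads may be mixed with theirs. A deposited table of normalized counts was not used.

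Each tissue was fitted separately with edgeR 4.0.16 (filterByExpr with a minimum count of 10, TMM, quasi-likelihood test), with 1 coefficient per sex, treatment and time, and treatment effects averaged over times. P-values were adjusted by Benjamini-Hochberg over all genes tested in the tissue. Errors after ± are SD for CPM and SE for log2 fold changes. The animal number in the labels makes each library of a tissue 1 mouse. The members and gene lists were chosen with earlier results of these data known. Genes named beside them are the 5 with the highest Pearson r, and list genes past the threshold or defining their list. Fits were tested on simulated data. Alternatives were DESeq2 1.42.0, no filter and a filter of 5 CPM in 3 libraries, no mitochondrial genes, 1 sex alone, a replicate block and leaving out libraries. The choice to leave out female libraries of ovary, uterus, adrenal gland and tendons, each female mouse in muscle, and to use raw totals was made after seeing the data. Promoters and names came from RefSeq and GENCODE tables (10 of 10 members matched).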

Additional observations from a re-analysis of the deposited data

Results flagged for a closer look

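Of 64 groups of 6 libraries examined, 10 had a highest library whose gap to the next exceeded 0.625 of the group's range. For independent, normally distributed values that limit flags about 1 in 20 groups. The CPM values need not be normal and the groups share mice, so the 10 cannot be judged against that rate. For Klk1 these were the female Control ZT05 replicate 1 adrenal gland at 4.13 CPM (the others at 0.268 to 1.40) and the female Deficient ZT17 replicate 1 adrenal gland at 712 CPM (0.0851 to 13.9). In the EDL tendon the Deficient ZT05 replicate 3 female stood at 0.572 CPM (0 to 0.170), and in kidney the Deficient ZT17 replicate 2 female at 2977 CPM (2047 to 2388). In spleen the female Control ZT05 replicate 1 library stood at 207 CPM (4.92 to 31.2) and the female Deficient ZT17 replicate 3 library at 60.9 CPM (2.49 to 7.16).

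Klk1b26 in gastrocnemius was at 6.61 CPM in the Control ZT17 replicate 2 female (1.58 to 2.74 in the others). Klk1b27 in ovary was at 10.6 CPM in Control ZT17 replicate 3 (0.0905 to 3.70) and at 0.739 CPM in Deficient ZT17 replicate 3 (0.270 to 0.415). In testis it was at 4.197 CPM in Control ZT17 replicate 1, against 0.778 to 1.61 CPM in the other Control males.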

How the results depend on the processing

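As a description with no test, since the testis values chose the members, 3 members had a fitted log2 difference below -1 in testis, also with DESeq2. There were 5 with no low-count filter and 0 with the stricter filter, which removed those 3 genes. The kidney count of 1 in females ranged from 0 to 1 over the fits that left out libraries. In males it ranged from 0 to 1 over those fits, and was 0 with no filter, the stricter filter, no mitochondrial genes and male libraries alone. Klk1 in male kidney was -0.05 on raw totals. The 11 calls in other tissues became 6 with the stricter filter and ranged from 3 to 12 over fits that left out replicates. The time difference of the response went from 0 to 1 with DESeq2 and with no filter. The time difference in Control went from 1 to 0 with the stricter filter and was 0 in every fit that left out a replicate number. The 9 sex differences in Control ranged from 4 to 8. The cause of these shifts was not tested, beyond the filter's own effect in testis. Reversed directions were Klk1b26 in female gastrocnemius (-0.072 without replicate 1, and up to 0.48 over the replicate leave-outs) and Klk1 in female adrenal gland (from -0.79, without the library at 712 CPM, to 5.32 over the leave-outs, and -2.38 without both libraries highest in proximal tubule genes). Of the other settings for single genes, 429 were counted as the same, 65 lost the call and 16 gained it. The same means an unchanged direction and side of the threshold. For the 3 untested testis genes it means a log2 difference that moved by less than the SD of the Control libraries. In the EDL and TA tendons the summed family counts differed by -0.08 and -0.33 in females.

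The replicate numbers did not pair the samples: mean correlations of same-numbered deviations lay between -0.02 and 0.08 over the tissues. With the replicate block the time difference in Control fell to 0 calls, Klk1 in female adrenal gland had an adjusted p of 0.0796 (4.40) and Klk1b21 in uterus 0.0665 (-2.51), both by edgeR. Low depth limits Klk1b22, Klk1b11 and the tendon values of Klk1, which rest on few counts.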
